A study of Mus musculus with 2 samples.

Results

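The macula densa signalling genes described here are 6 of the 32227 genes counted in single-nucleus libraries of the mouse thick ascending limb (TAL): Nos1, Ptgs2, Pappa2, Vash2, Itga4 and Sncaip. They were taken by name, by a rule that uses no measured value, but with earlier results of these data known, and all 6 were found in both libraries. Their raw counts were followed across the 13 deposited clusters of each library, among barcodes with at least 10 Slc12a1 counts (called Slc12a1-positive below), and, for each of the 15 pairs, within the same barcode.

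The macula densa (MD) is a plaque of tubule cells at the end of the TAL that touches the glomerulus of its own nephron. Its cells sense tubular salt through NKCC2, the cotransporter encoded by Slc12a1, and answer with local mediators that set arteriolar tone and renin release. Nitric oxide from neuronal nitric oxide synthase and prostaglandins from cyclooxygenase-2 are the best known of these mediators, and both enzymes are classical markers of the plaque.

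Both libraries came from kidneys of NKCC2-INTACT mice, in which a tamoxifen-dependent Cre recombinase (CreERT2) driven by the NKCC2 gene places Sun1-sfGFP on the nuclear envelope of TAL and MD cells, and both held nuclei sorted for this green fluorescence. The labels give strain B6, male sex, genotype WT and an age of 12 without a unit, and the mice of both libraries received tamoxifen. The cortex library was made from a superficial strip of the slice and the medulla library from all remaining tissue, so the medulla library also holds deep cortex. There was 1 library per region and no replicate, so region and library cannot be told apart, no test between regions was possible, and every interval below covers counting error only.

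The cortex library held 16457300 counts in 5442 called barcodes (median 2427 counts) and the medulla library 20947211 counts in 8121 barcodes (median 2430 counts). Of these, 5218 (95.9%) and 7967 (98.1%) barcodes were Slc12a1-positive, and no barcode sequence was shared by the libraries. In each library 1 deposited cluster had all 10 of 10 MD markers raised, none of them a member: cluster 3 of cortex with 715 barcodes and cluster 12 of medulla with 99. These are called MD-like. The markers (Ndst4, Robo2, Unc5d, Luzp2, Srgap1, Sema6a, Auts2, Tshr, Pamr1 and Bmp3) come from the study's table for these same libraries and are no independent evidence, and the clusters were formed from the same counts as the members, so members inside against outside a cluster are a description and carry no test. MD-like barcodes were 13.55% of Slc12a1-positive barcodes in cortex (95% interval 12.6% to 14.5%) and 1.24% (1.01% to 1.51%) in medulla. They were shallow, with medians of 1766 and 1884 counts, against 2556 and 2430 in the other Slc12a1-positive barcodes.

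On GRCm39 (GENCODE M39) Nos1 lies on chromosome 5 from 117918971 to 118096905 on the plus strand. Ptgs2 lies on chromosome 1 from 149975194 to 149983978 on the plus strand, and the same chromosome holds Pappa2 from 158539297 to 158808060 and Vash2 from 190679843 to 190711504, both on the minus strand. Itga4 lies on chromosome 2 from 79085660 to 79163467 on the plus strand. Ptgs2 shares 521 bases with Ptgs2os, an antisense noncoding RNA with 65 counts in cortex and 20 in medulla, and Itga4 shares 3948 bases with Cerkl on the other strand (438 and 351 counts). The strand setting of the counting is not given in the sources used here, so counts in these shared stretches are uncertain, whereas Vash2 overlaps no annotated gene. Nos1 overlaps 6 annotated genes, the longest stretches being 25324 bases with the antisense noncoding RNA Gm30360 and 16541 bases with the same-strand Gm74217. Neither is among the counted genes, so that reads from them and from Nos1 could not be told apart by gene name. Sncaip overlaps 3 genes, by up to 5789 bases. Pappa2 shares 12763 bases with the same-strand noncoding RNA 1600012P17Rik, which had 2 counts in cortex and 0 in medulla.

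The 250 bases before the most 5′ start of the protein-coding transcripts are shown for Nos1, Ptgs2 and Pappa2, the members of the pairs given first below. Capitals mark a match to any of 5 short motifs, searched on both strands, none of which contains another. The core of a cAMP response element was searched as TGACG, and 16.8% of 21073 windows of protein-coding genes held it. An E-box was searched as CACGTG, which stood in 5.82% of these windows. The TATA box was searched as TATAAA, which stood in 12.3%. For AP-1 the letters were TGANTCA, which stood in 6.38%. A nuclear receptor site was searched as AAGGTCA, which stood in 4.26%.
Nos1, chr5:117918721-117918970, plus strand: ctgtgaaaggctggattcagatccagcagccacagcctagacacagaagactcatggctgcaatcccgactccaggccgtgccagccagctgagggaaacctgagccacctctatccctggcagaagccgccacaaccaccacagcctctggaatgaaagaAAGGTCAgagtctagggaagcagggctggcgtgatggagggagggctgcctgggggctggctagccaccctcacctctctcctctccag
Ptgs2, chr1:149974944-149975193, plus strand: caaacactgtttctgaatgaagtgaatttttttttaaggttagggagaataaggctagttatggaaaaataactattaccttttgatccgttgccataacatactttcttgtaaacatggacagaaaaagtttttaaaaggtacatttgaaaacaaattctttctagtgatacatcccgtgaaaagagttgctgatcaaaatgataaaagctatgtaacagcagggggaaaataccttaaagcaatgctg
Pappa2, chr1:158785938-158786187, minus strand: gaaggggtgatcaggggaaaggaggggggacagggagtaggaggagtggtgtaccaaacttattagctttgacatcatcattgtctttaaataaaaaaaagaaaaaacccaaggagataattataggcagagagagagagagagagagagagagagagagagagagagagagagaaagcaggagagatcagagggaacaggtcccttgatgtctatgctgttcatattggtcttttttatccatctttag
Among the 5 members searched (all but Sncaip, whose chromosome was left out), only the Nos1 window held a match, to the nuclear receptor site, whose first base stands 89 bases before the start. A match is a description of letters only. The Pappa2 window lies inside the annotated gene, and those of Nos1 and Pappa2 end in the letters ag, as introns do, so that these starts may be exon borders and the windows are not known to be promoters. These windows were chosen after other choices of start had been seen, and other annotated starts of the same genes, Ptgs2 included, give other letters. The lack of a match in a window thus does not show that the promoter of that gene lacks the site.

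Nos1, the neuronal nitric oxide synthase, was counted in 654 of the 715 MD-like barcodes of cortex (91.5%, 89.2% to 93.4%) and in 87 of the 99 of medulla (87.9%, 79.8% to 93.6%). Its level was 1847 CPM (counts scaled to the same total in every set, 1774 to 1922) in cortex and 1928 CPM (1734 to 2137) in medulla. The MD-like cluster held 80.2% of all Nos1 counts of cortex and 80.6% of those of medulla. In cortex the next levels were 271 CPM (234 to 312) in cluster 10 and 198 CPM (163 to 237) in cluster 8, whose intervals touch. The clusters that follow were 12, distal convoluted tubule-like, at 66.0 CPM, the proximal tubule-like clusters 7 and 6 at 54.2 and 33.7 CPM, cluster 9 at 38.8 CPM and cluster 11 at 26.5 CPM, with overlapping intervals between neighbours. TAL-β-like cluster 4 (6.57 CPM), clusters 5 (5.62) and 2 (3.57), and TAL-α-like cluster 1 (4.39) could not be ordered within their intervals. In medulla every other cluster lay at or below 18.03 CPM (10.5 to 28.9), the level of cluster 9.

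Ptgs2, cyclooxygenase-2, was the member with the highest share of its counts in the MD-like clusters, but other members lay close. The share was 86.3% in cortex, against 85.2% for Pappa2 and 82.6% for Vash2. In medulla it was 92.3%, from 24 of 26 counts, against 85.7% for Vash2, from 12 of 14. Ptgs2 was counted in 109 of 715 MD-like barcodes of cortex (15.2%, 12.7% to 18.1%) and in 16 of 99 of medulla (16.2%, 9.53% to 24.9%), at 122 CPM (103 to 142) and 128 CPM (82.1 to 191). Cluster 10 of cortex came next with 20.7 CPM (11.6 to 34.2), and 4 other cortex clusters held at most 3.67 CPM. In the remaining 7 cortex clusters Ptgs2 was not detected. These included TAL-α-like cluster 1 with 1326 barcodes and a total depth at which 3 counts correspond to 0.879 CPM. In medulla only 2 counts lay outside the MD-like cluster, 1 each in clusters 1 and 4.

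Pappa2 encodes a secreted metalloproteinase that cleaves insulin-like growth factor (IGF) binding proteins. It was counted in 472 of 715 MD-like barcodes of cortex (66.0%, 62.4% to 69.5%) and in 57 of 99 of medulla (57.6%, 47.2% to 67.4%). Its level was 2155 CPM (2076 to 2236) in cortex and 1591 CPM (1416 to 1783) in medulla. Cluster 10 of cortex followed at 253 CPM (218 to 292), and then clusters 12 (91.6 CPM), 8 (63.5 CPM) and 7 (47.6 CPM), all below cluster 10 beyond their intervals, while the intervals of clusters 12 and 8 and of clusters 8 and 7 overlap. Every other medulla cluster lay at or below 8.81 CPM. Vash2, vasohibin 2, removes the terminal tyrosine of α-tubulin together with its partner Svbp. It was counted in 127 of 715 MD-like barcodes of cortex (17.8%) and 8 of 99 of medulla (8.08%, 3.55% to 15.3%), at 113 CPM (95.6 to 133) and 64.1 CPM (33.1 to 112). Clusters 10 and 8 of cortex came next at 13.8 and 12.0 CPM, and 2 counts lay outside the MD-like cluster in medulla.

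Itga4, the integrin α4 subunit that binds fibronectin and VCAM-1, was counted in 201 of 715 MD-like barcodes of cortex (28.1%, 24.8% to 31.6%) and 28 of 99 of medulla (28.3%, 19.7% to 38.2%), at 224 CPM (199 to 251) and 219 CPM (157 to 297). Cluster 10 of cortex held 45.6 CPM (31.4 to 64.1) and cluster 9 held 18.8 CPM (10.8 to 30.6). Sncaip encodes synphilin-1, a cytoplasmic protein that binds α-synuclein. It was counted in 277 of 715 MD-like barcodes of cortex (38.7%, 35.2% to 42.4%) and 37 of 99 of medulla (37.4%, 27.8% to 47.7%), at 383 CPM (350 to 418) and 379 CPM (296 to 478). It was the only member whose second cortex cluster was not cluster 10 but cluster 9, at 122 CPM (100 to 148) in 37 of 216 barcodes. Cluster 9 could not be named, because markers of several other cell types were raised in it, including 6 of 6 collecting duct principal, 6 of 6 endothelial and 6 of 6 podocyte genes. In medulla the second cluster for Sncaip was likewise an unnamed cluster 9 with markers of several types, at 19.1 CPM (11.3 to 30.2).

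**Figure D1:**
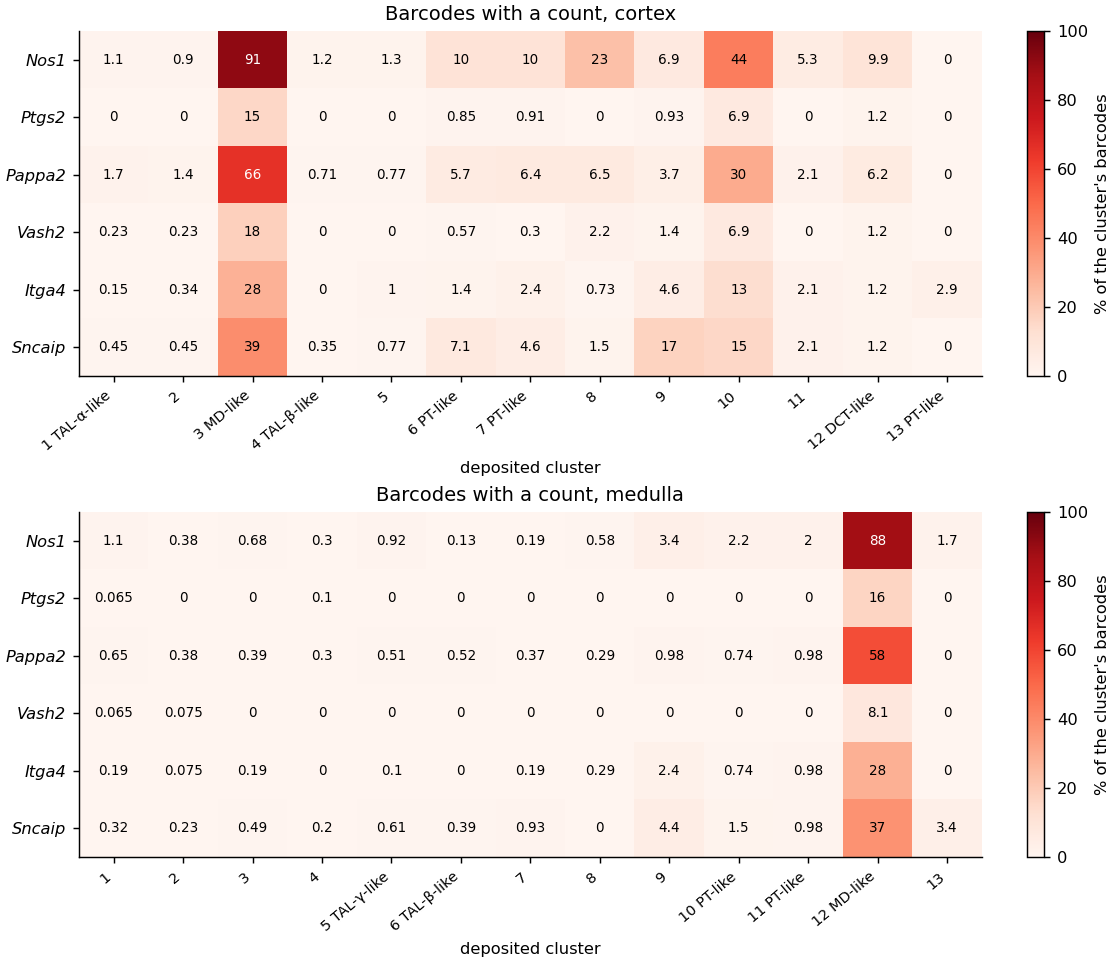
Share of barcodes with at least 1 count of each member (rows) in each deposited cluster (columns) of cortex (top) and medulla (bottom), in percent of the cluster's barcodes, with PT, DCT and MD for proximal tubule, distal convoluted tubule and macula densa. The MD-like column stands out for all 6 members in both libraries, from 15.2% for Ptgs2 to 91.5% for Nos1 in cortex.

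Cluster 10 of cortex, second for 5 members, had 144 barcodes with a median of 4585 counts and 70.5 Slc12a1 counts, the highest Slc12a1 median of the library, and 4 of 10 MD markers raised. Scrublet scores, which mark barcodes that resemble 2 nuclei together, passed the threshold in 125 of its 144 barcodes (86.8%), against 5 of 715 (0.699%) in the MD-like cluster. The part of such barcodes in its member levels was not tested beyond the recount without them given below. Cluster 8 of cortex, with 275 barcodes, had 3 of 10 MD markers raised and 18 barcodes (6.55%) past the Scrublet threshold.

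Shares of barcodes with a member were set beside those in cells without NKCC2. Proximal tubule-like barcodes without Slc12a1 held Nos1 in 0 of 70 in cortex, which allows a share of up to 4.29%, and in 2 of 102 in medulla (1.96%). Their median depths were 3344 and 4588 counts. TAL-α-like cluster 1 of cortex held Nos1 in 15 of 1326 barcodes (1.13%) at a median of 2521 counts, so no expression was read from shares of this size. The shares of Nos1 in clusters 8 (23.3%) and 10 (43.75%) lay above that limit. So did those in clusters 7 (10.4%) and 6 (10.3%). The shares of clusters 12 (9.88%, 4.36% to 18.5%), 9 (6.94%, 3.94% to 11.2%) and 11 (5.32%, 1.75% to 12.0%) stood above it too. Their intervals cover it. Clusters 6 and 7 were proximal tubule-like and deeper, with medians of 6342 and 5492 counts. The Scrublet threshold was passed by 17.95% and 14.9% of their barcodes. A share above the limit was therefore not read as expression by itself. The part of doublets and free RNA in these shares was not tested. Uncalled barcodes with 1 to 100 counts, which sample free RNA, held 176 CPM of Nos1 in cortex and 19.9 CPM in medulla.

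Detection rose with the number of MD markers that a barcode held. The markers were chosen on these same libraries and most counts of each member lay in the MD-like cluster, so a rise was given in advance. Among Slc12a1-positive cortex barcodes, Nos1 was counted in 1.27% of the 1968 with 0 markers, in 19.9% of the 276 with 3, in 57.4% of the 176 with 4, in 80.4% of the 184 with 5 and in 94.2% of the 208 with 7. Pappa2 was counted in 1.07%, 8.70%, 36.4%, 47.8% and 66.8% of the same groups. Ptgs2 was counted in 0, 2, 10, 24 and 31 of these barcodes, up to 14.9%. The median depth of these groups was 2386 counts at 0 markers, 3300 at 3 and 1882 at 7. In medulla Nos1 stood at 0.569% of 6502 barcodes with 0 markers and at 94.4% of 18 with 7. Thinned to 1000 counts each, which left out 0 of the 715 MD-like barcodes of cortex and 1 of the 99 of medulla, Nos1 was counted in 78.5% (75.3% to 81.4%) and 81.6%, Pappa2 in 57.2% and 52.0%, and Ptgs2 in 10.1% and 8.16%.

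**Figure D2:**
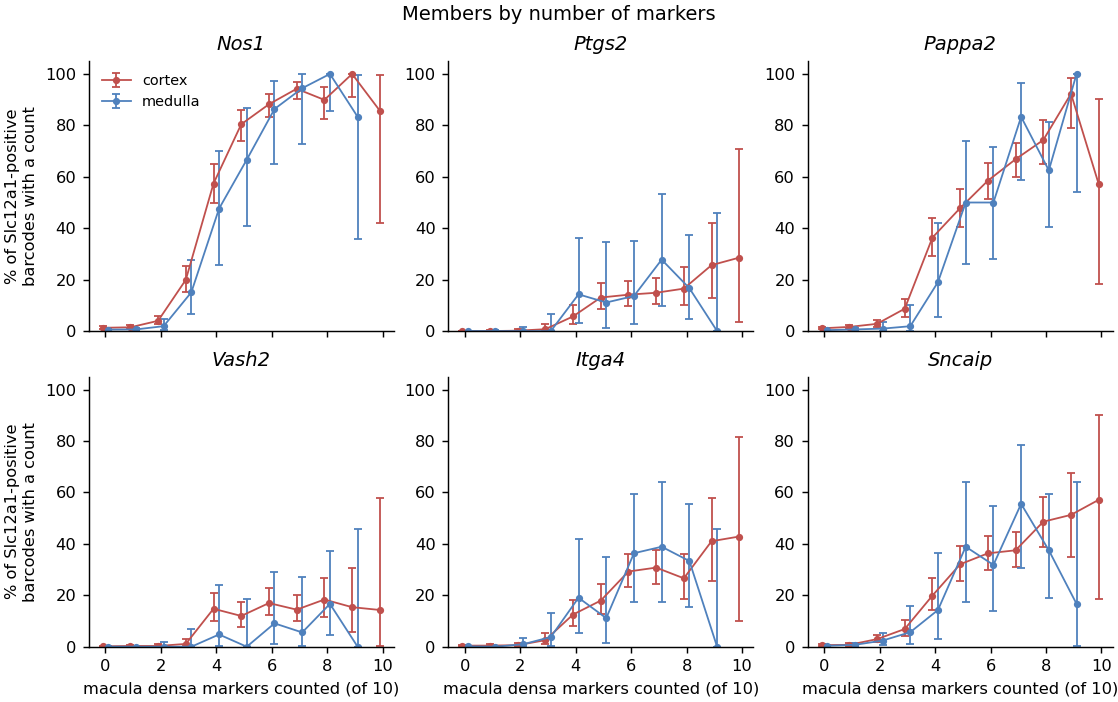
Share of Slc12a1-positive barcodes with a count of each member (y axis, percent) against the number of the 10 MD markers counted in the barcode (x axis) for cortex and medulla, with 95% Clopper-Pearson intervals and groups of at least 5 barcodes. The largest part of the rise of Nos1 lies between 2 and 5 markers in both libraries. Pappa2 went on rising past 5 markers, in cortex from 47.8% at 5 to 92.3% of the 39 barcodes at 9. At 10 markers it stood at 57.1% of 7 cortex barcodes. A rise with marker number was given in advance, since the markers were chosen on these libraries.

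All 6 members were at least 2-fold higher in the MD-like cluster of cortex than in the other Slc12a1-positive barcodes, where 8.05% of the 12790 genes with at least 50 counts were higher and 13.6% lower. The ratio was 70.1 for Ptgs2 (45.8 to 112), 64.2 for Pappa2 (58.3 to 70.9), 52.6 for Vash2 (35.5 to 80.2), 45.15 for Nos1 (41.2 to 49.5), 35.8 for Itga4 (28.2 to 45.9) and 25.4 for Sncaip (21.6 to 29.9). Ptgs2, Pappa2, Vash2 and Nos1 held ranks 1 to 4 of all genes tested, Itga4 rank 8 and Sncaip rank 23. Since the cluster was formed on these counts, the ranks describe the cluster. In medulla 15.2% of 12641 genes were at least 2-fold higher and 7.32% lower, and 4 of the 6 members had enough counts. The medulla cluster held only 187252 counts, so that 1 count inside stood at 5.34 CPM. A gene with 50 counts could thus pass 2-fold on 1 count inside. The floor of 3 counts stood at 16.0 CPM there, which held back lower calls. The medulla shares therefore hold much counting error and cannot be set against those of cortex. Pappa2 (526, 398 to 705), Nos1 (458, 360 to 586) and Itga4 (245, 138 to 454) stood at ranks 1, 2 and 4 and Sncaip (156, 107 to 229) at rank 9. Ptgs2 and Vash2 had 24 and 12 counts inside and 2 each outside, too few for the threshold, with ratios of 1293 (321 to 11284) and 646 (144 to 5946). The larger medulla ratios came with lower levels outside the cluster, 4.21 against 40.9 CPM for Nos1 and 3.02 against 33.5 CPM for Pappa2, while the levels inside were 1928 against 1847 CPM for Nos1 and 1591 against 2155 CPM for Pappa2. Without barcodes past the Scrublet threshold the cortex ratio was 72.1 for Nos1, 106 for Pappa2, 192 for Ptgs2 and 84.1 for Vash2, over 1.5 times the values above. In medulla, where the 5% of barcodes with the highest scores were left out instead, the ratio of Pappa2 was 839, also over 1.5 times. Thinned to 1000 counts, the cortex ratio of Ptgs2 was 238 and that of Itga4 68.3. After thinning, Ptgs2 was counted in only 2 of the 4511 barcodes outside the cluster and Itga4 in 17, so the Ptgs2 value is very uncertain.

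Between the libraries, the levels of 5 of the 6 members in the MD-like cluster did not differ beyond counting error. The ratio of cortex to medulla was 0.958 for Nos1 (0.857 to 1.07), 0.949 for Ptgs2 (0.615 to 1.53), 1.02 for Itga4 (0.736 to 1.46), 1.01 for Sncaip (0.786 to 1.31) and 1.77 for Vash2 (0.981 to 3.50). Pappa2 was 1.35 times higher in cortex (1.20 to 1.53), but its counts spread far more than Poisson counts, as given below, so that this interval is too narrow. None of the 6 members reached 2-fold, where 4.47% of 5324 genes were at least 2-fold higher and 0.883% at least 2-fold lower in cortex. The medulla value of Vash2 rests on 12 counts.

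Pairs of members were found in the same barcode far more often than the product of their separate shares over all Slc12a1-positive barcodes. Most counts of each member lay in the MD-like cluster, a small part of these barcodes, so an excess over this product was given in advance. Bins of total counts do not remove it. The excess thus describes the shared cluster and is no separate evidence for a link between members. In cortex Nos1 and Ptgs2 were counted together in 122 barcodes, against 22.1 for the product (5.51 times), and Nos1 and Pappa2 in 507 against 107.5 (4.715 times). The 15 pairs lay between 4.53 and 6.93 times the product. With the product taken within 5 bins of total counts they lay between 3.12 and 4.32 times, with Nos1 and Ptgs2 at 3.55 and Nos1 and Pappa2 at 3.15. Ptgs2 was almost always found with Nos1, in 122 of 128 barcodes (95.3%), whereas 13.5% of the Nos1 barcodes held Ptgs2. In medulla Nos1 was found with Ptgs2 in 16 barcodes and with Pappa2 in 58, against 0.323 and 1.69 for the product, or 49.5 and 34.4 times, and 39.3 and 27.5 times within bins of total counts.

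Within the MD-like cluster of cortex the same pairs stood near the product. There Nos1 and Ptgs2 were counted together in 104 barcodes against 99.7, or 1.04 times, and Nos1 and Pappa2 in 436 against 432, or 1.01 times. Nos1 was counted in 654 of these 715 barcodes, so its pairs could stand only slightly above the product. A value near 1 is thus no measure of independence for pairs with Nos1. Ptgs2 and Pappa2 were counted together in 78 against 72.0. The 15 pairs ranged from 0.924 for Vash2 with Itga4 (33 against 35.7) to 1.14 for Ptgs2 with Vash2 (22 against 19.4). In the 1211 barcodes with at least 3 of the 10 markers, of which 704 were MD-like and 507 were not, the pairs lay between 1.27 and 1.66 times the product, with Nos1 and Ptgs2 at 121 against 87.0 and Nos1 and Pappa2 at 505 against 384. That range of a marker number is no cell type, since 276 barcodes stood at its lower limit of 3 markers. In the 99 MD-like barcodes of medulla Nos1 and Ptgs2 were found together in 15 against 14.1, Nos1 and Pappa2 in 55 against 50.1, and the 15 pairs ranged from 0.984 times for Nos1 with Sncaip to 3.87 times for Ptgs2 with Vash2 (5 against 1.29). Vash2 with Itga4 stood at 2.21 times (5 against 2.26), Ptgs2 with Itga4 at 1.77 (8 against 4.53), Pappa2 with Vash2 at 1.52 (7 against 4.61) and Pappa2 with Itga4 at 1.43 (23 against 16.1). The pairs above 1.5 times rest on 5 to 8 barcodes each. Nos1 was counted in 87 of the 99 barcodes, which limits its pairs in the same way. All 6 members were counted together in 5 cortex and 3 medulla MD-like barcodes, and 9 of 715 and 6 of 99 held none.

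**Figure D3:**
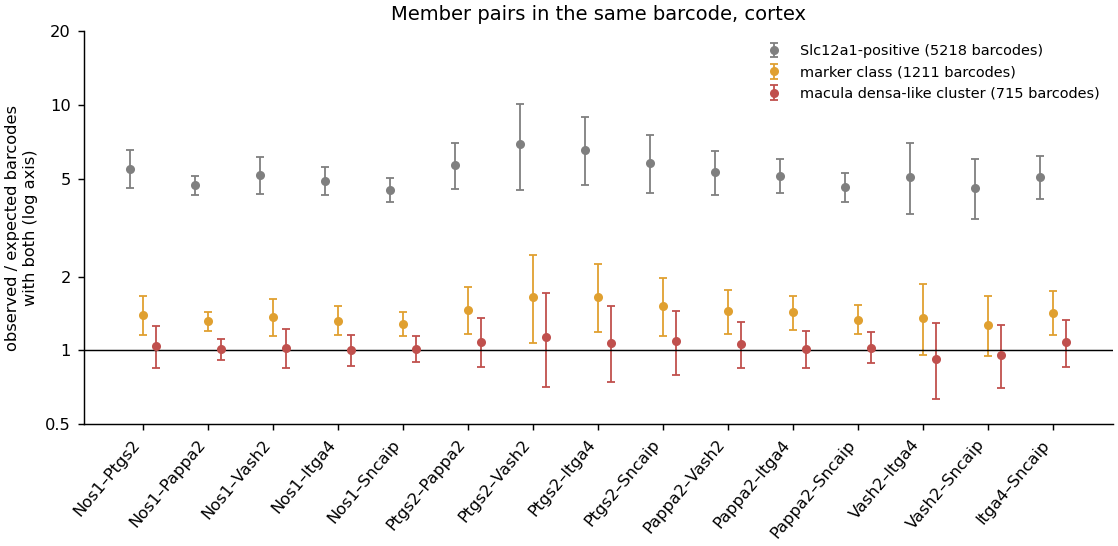
Observed number of cortex barcodes with both members of a pair over the number given by the product of their shares (log y axis) for the 15 pairs, in all Slc12a1-positive barcodes, in those with at least 3 of 10 MD markers (the marker class), and in the MD-like cluster, with Poisson 95% intervals. Values in the MD-like cluster lie around 1, between 0.924 and 1.14, where pairs with Nos1 could lie only slightly above 1.

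Pappa2 was spread unevenly among MD-like barcodes. Its counts in cortex had a median of 2, a 95th percentile of 16 and a maximum of 38, and 243 of 715 barcodes (34.0%) held none, against 2.54% for Poisson counts at each barcode's depth. The 72 barcodes with the most Pappa2 held 43.9% of its counts. Nos1, with a mean of 3.36 counts against 3.92 for Pappa2, had 8.53% of barcodes at 0, against 4.19% for Poisson counts. The variance over the Poisson variance was 7.25 for Pappa2 and 1.685 for Nos1. Among the 208 genes with a mean of at least 1 count in this cluster, Pappa2 was the highest in both this ratio and the excess of zeros, and the median of these genes was 1.42. In medulla Pappa2 was again the highest of 222 genes, with 42.4% of barcodes at 0 against 5.90% for Poisson counts and a ratio of 6.835. Nos1 in medulla had 12.1% of barcodes at 0 against 3.38% for Poisson counts and a ratio of 2.55, rank 22 of the 222. Vash2, at 82.2% against 81.5%, lay close to Poisson counts in cortex, and Sncaip held 61.3% of barcodes at 0 against 50.4%.

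**Figure D4:**
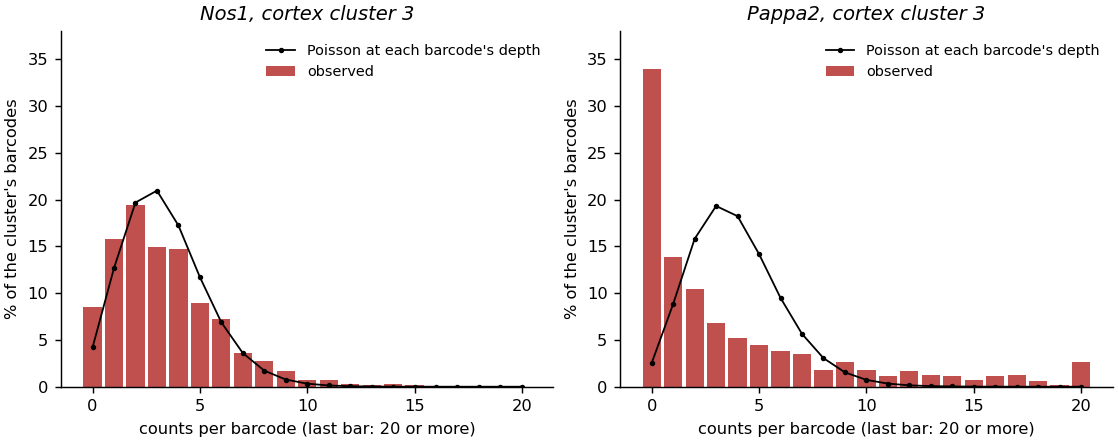
Share of the 715 MD-like barcodes of cortex (y axis, percent) by their counts of Nos1 (left) and Pappa2 (right), with the share given by Poisson counts at each barcode's depth (line). Pappa2 has 34.0% of barcodes at 0 and a long tail (the last bar holds 20 counts or more), while Nos1 has 8.53% at 0.

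The barcodes with and without Pappa2 had median depths of 1789 and 1709 counts in cortex and of 2001 and 1770 counts in medulla. Nos1 was higher in those with Pappa2, by 1.31 times (1.20 to 1.43) in cortex and by 1.51 times (1.20 to 1.90) in medulla. The variance of Nos1 was 1.685 and 2.55 times the Poisson variance, so these intervals are too narrow. Ptgs2 differed by a factor of 1.01 (0.720 to 1.44) in cortex, Sncaip by 1.05 (0.864 to 1.27), Vash2 by 1.13 (0.785 to 1.64) and Itga4 by 1.07 (0.835 to 1.39), none beyond counting error. In medulla Itga4 stood at 2.35 (1.10 to 5.59, from 32 against 9 counts) and Sncaip at 0.718 (0.439 to 1.18). The Itga4 interval is too narrow as well, since its variance there was 1.30 times the Poisson variance. The summed 10 MD markers stood at 1.11 (1.08 to 1.15) in cortex and 1.39 (1.28 to 1.51) in medulla, and the summed 8 TAL-γ markers at 1.43 (1.12 to 1.83) and 3.72 (1.94 to 7.83). The summed 8 TAL-α markers stood at 0.917 (0.814 to 1.03) in cortex and 0.667 (0.492 to 0.905) in medulla, and the summed 8 TAL-β markers at 0.888 (0.822 to 0.959) and 0.896 (0.739 to 1.09). The part of these markers in the split was not tested. Slc12a1 itself was lower, at 0.933 (0.905 to 0.961) and 0.887 (0.822 to 0.957). Summed proximal tubule markers stood at 0.970 (0.661 to 1.44) in cortex.

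Of 4874 genes with at least 50 counts in the cortex cluster, 51 were at least 2-fold higher and 19 at least 2-fold lower with Pappa2. A split by Ptgs2 (109 barcodes with, 606 without) gave 24 higher and 153 lower. A split by Nos1 (654 and 61) gave 206 and 96. Calls of this kind were thus not particular to Pappa2, and the part of counting error in them was not tested. For the split by Pappa2, the 6 genes with the highest lower bound and the 6 with the lowest upper bound of the ratio are given next. They were chosen on their cortex values, so that only the medulla values are separate. Adarb2, a member of the RNA-editing deaminase family without known editing activity, stood 2.52 times higher in cortex (436 against 86 counts) and 4.44 times higher in medulla (2.34 to 9.28). Frem1, an extracellular matrix protein, had a ratio of 3.36 in cortex and of 3.70 in medulla (1.41 to 12.3). Ptprz1, a receptor-type tyrosine phosphatase, stood at 5.02 in cortex and 2.64 in medulla (0.852 to 10.85). For Sema6a (2.055 in cortex), Etv4 (3.73) and Maml1 (3.76) the medulla ratios were 1.42 (0.884 to 2.33), 1.98 (0.159 to 103.9) and 1.16 (0.294 to 5.38), none apart from 1 beyond counting error. Of the lower genes, Tox, a nuclear HMG-box protein, was 0.290 times as high in cortex and 0.055 times in medulla (0.00129 to 0.372, from 1 against 12 counts). The other 5 did not hold in medulla beyond counting error. Eda (0.359 in cortex) stood at 0.66 there, Ghr (0.543) at 0.792, Map3k20 (0.395) at 0.99 and Defb1 (0.449) at 1.76, and Acsl1 (0.360) had 3 counts with and 0 without Pappa2. Of the 51 higher genes 31 had at least 10 counts in medulla, and 24 of these were higher there, where 1939 of all 3937 such genes were higher. Of the 19 lower genes 14 had at least 10 counts, and 8 of these were lower.

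The proportions between members differed among cortex clusters. Per 100 Nos1 counts there were 117 Pappa2 counts in the MD-like cluster (110 to 123), 115 in uncalled barcodes with 1 to 100 counts (102 to 131) and 93.4 in cluster 10 (75.9 to 115). Cluster 8 held 32.2 (21.6 to 47.0), from 37 Pappa2 and 115 Nos1 counts, while 134 Pappa2 counts would stand at the MD-like proportion. It also held 0 counts of Ptgs2 where 7.57 would stand at that proportion, 2 of Itga4 against 13.95 and 7 of Sncaip against 23.8. Vash2 in cluster 8 kept that proportion, with 7 counts against 7.05. Nos1 was counted in 64 of its 275 barcodes (23.3%). The 10 leading genes of cluster 8 included Hsd17b2, Cxcl12, Hmga2, Dcdc2a, Ache and Slit3. Cluster 9 and proximal tubule-like cluster 6 went the other way for Sncaip. Cluster 6 held 46.7 (31.6 to 68.0) and cluster 9 held 315 Sncaip counts per 100 Nos1 counts (211 to 482) against 20.7 (18.8 to 22.8) in the MD-like cluster. For Pappa2 per 100 Nos1 counts the interval of uncalled barcodes did not overlap that of cluster 8. The Nos1 level of cluster 8, 198 CPM (163 to 237), did overlap that of uncalled barcodes with 1 to 100 counts, 176 CPM (160 to 192). The part of free RNA in cluster 8 was not tested.

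**Figure D5:**
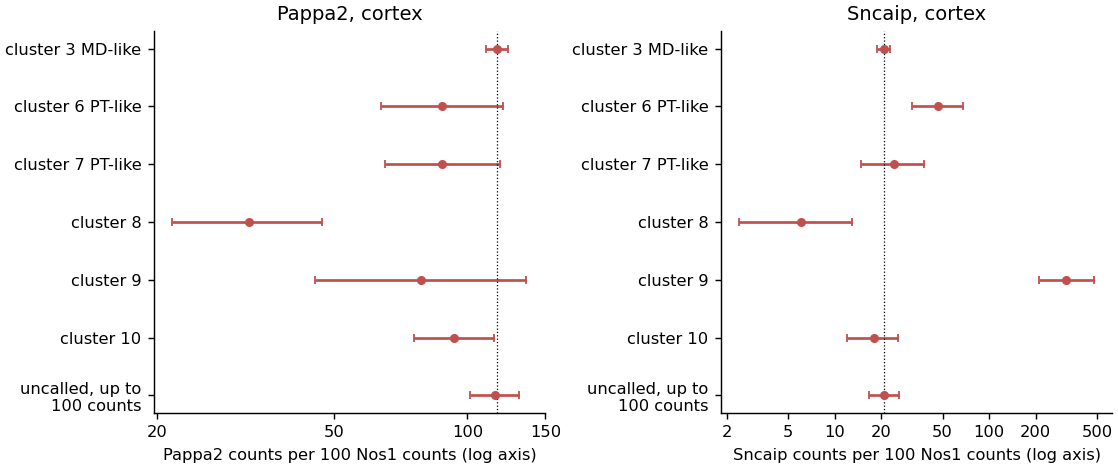
Counts of Pappa2 (left) and Sncaip (right) per 100 Nos1 counts (log x axis) in cortex clusters with at least 20 Nos1 counts and in uncalled barcodes, with 95% conditional binomial intervals and the MD-like value as a dotted line. Cluster 8 lies below the MD-like proportion for both genes, and clusters 6 and 9 lie above it for Sncaip.

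Genes that work with the members were counted from fixed lists in the cortex MD-like cluster, against the other Slc12a1-positive barcodes, where the median log2 ratio of all genes was 0.016 in cortex and -0.0049 in medulla. Of all genes with enough counts 8.05% were at least 2-fold higher and 13.6% lower in cortex, and 15.2% and 7.32% in medulla. Every list below is to be read against these shares. A count near them was not read as a result about the list. Of 20 nitric oxide genes 15 had enough counts, 3 were at least 2-fold higher and 5 lower (median log2 ratio -0.20). Gucy1a2, a subunit of the nitric oxide receptor guanylyl cyclase, was 3.49 times higher (2.68 to 4.51), with 61.6 CPM, and Arg2, the arginase that competes for arginine, 2.32 times (1.68 to 3.14). Dynll1, a light chain that binds the enzyme, was 2.09 times higher (1.37 to 3.11). Ddah1, which degrades methylarginine inhibitors of nitric oxide synthases, was 0.029 times as high (0.0095 to 0.068), from 5 counts inside the cluster, and Ass1, Asl, Pde9a and Gucy1a1 were lower too, the last with 0 against 68 counts. The other nitric oxide synthases Nos2 and Nos3 had 1 and 3 counts in the cluster. In medulla 5 of 14 were higher and 1 lower (median 0.12), and Gucy1a2 was 11.2 times higher (5.95 to 19.4). Of these calls, Pde5a and Arg2 (higher) and Ddah1 (lower) rested on 2 to 4 counts in the cluster, with intervals that cover 1.

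Of 17 prostaglandin genes 11 had enough counts, 3 were higher and 3 lower (median 0.19). Pla2g4a, the cytosolic phospholipase that frees arachidonic acid, had a ratio of 5.46 (5.04 to 5.92) in cortex and 8.32 (6.87 to 10.0) in medulla. Mgll, monoacylglycerol lipase, was 7.39 and 7.34 times higher, and Tbxas1, thromboxane synthase, 2.55 and 3.47 times. The prostaglandin transporter Slco2a1 was 0.037 times as high (0.017 to 0.070) and Slco3a1 0.332 times. Ptgs1, the other cyclooxygenase, had 0 counts in the cluster against 86 outside. Ptges, the inducible prostaglandin E synthase, had 10 counts in the cluster and 24 outside, too few for the threshold. In medulla 3 of 10 were higher and 3 lower (median -0.091).

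Of 16 genes of IGF signalling 11 had enough counts, 1 was higher and 6 lower (median -1.36). The higher gene was Pappa, the paralog of Pappa2, at 6.26 times (5.84 to 6.72) and 955 CPM in cortex and 26.1 times (22.2 to 30.4) in medulla. Igf1r, the IGF receptor, was 0.390 times as high (0.361 to 0.420), its substrate Irs1 0.287 times, and the binding proteins Igfbp7 and Igfbp4 0.140 and 0.221 times. In medulla 3 of 10 were higher and 3 lower (median 0.30). Igfbp5, a substrate of Pappa2, was 6.26 times higher there (3.46 to 10.5) and at 0.839 (0.631 to 1.10) in cortex.

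The other lists had fewer members past 2-fold. Of 5 tubulin tyrosine genes with enough counts 1 was higher, Ttl, the enzyme that puts the tyrosine back, at 3.79 times (2.37 to 5.88), and 0 lower (median -0.011), while Svbp stood at 1.61 (0.769 to 3.04). In medulla 1 of 5 was higher (median -0.32), and Ttl had 0 counts in the cluster. The higher gene was Tuba1b, from 2 counts in the cluster, with an interval that covers 1 (0.463 to 14.8). Of 8 integrin partners 0 were higher and 1 lower, Itga9 (median -0.58), and Itgb1, the β1 partner of Itga4, stood at 1.20 (0.988 to 1.45). In medulla 0 of 8 were higher and 2 lower (median -0.42). Of 5 synuclein and parkin genes 0 were higher and 2 lower, Lrrk2 at 0.063 and Siah2 at 0.394 (median -0.077), and in medulla 1 of 5 was lower (median 0.0018), Lrrk2 at 0.059. Of 13 salt sensing genes 1 was higher, the sodium-proton exchanger Slc9a2 at 3.46 times (3.17 to 3.77), and 4 were lower, Nedd4l, Casr, Piezo1 and Bsnd (median -0.15). In medulla 3 of 13 were higher and 1 lower (median 0.030), with Slc9a2 at 8.17 times (6.37 to 10.3). Of the higher genes Mapk3 rested on 2 counts in the cluster, with an interval that covers 1 (0.243 to 7.5).

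Of 9 immediate early genes with enough counts 4 were higher, Egr1 (11.6 times), Nr4a1 (11.4 times), Ier2 (4.26 times) and Jun (2.77 times), and 1 lower, Dusp1 (median 0.97). In medulla 3 of 6 were higher and 1 lower (median 0.38), and Jun stood at 0.765 (0.208 to 1.97). Of these calls, Btg2 and Zfp36 (higher) and Dusp1 (lower) rested on 7, 5 and 3 counts in the cluster, with intervals that cover 1. Summed over the list, immediate early genes were 1.16 times higher (0.963 to 1.39) in MD-like barcodes of cortex with Ptgs2, itself an immediate early gene, than in those without, and 1.735 times (1.09 to 2.70) in the 16 such barcodes of medulla. Most counts of these sums were of Ier3, with 565 in the cortex cluster and 75 in that of medulla, against 74 and 4 for Jun. Of the 5 renin cell genes none had enough counts in either library. Ren1, renin itself, had 3 counts in the cortex MD-like cluster and 0 in that of medulla.

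Likeness to each member was taken as Pearson's r of log2(CPM + 1) over the 26 deposited clusters of both libraries, among 11171 genes with at least 200 counts. The clusters of a library share its free RNA and its depth, so r is a description. Closest to Nos1 were Ndst4 (0.96), Pappa2 (0.95) and Unc5d (0.91). Closest to Pappa2 were Nos1 (0.95), Ndst4 (0.92) and Prr16 (0.90). Closest to Ptgs2 were Unc5d (0.93), Slc4a10 (0.93), a bicarbonate transporter, and Pappa2 (0.90). Closest to Vash2 were Unc5d (0.95), Zfand5 (0.94) and Pappa2 (0.93). Itga4 lay closest to Ptgs2, Ntrk3 and Frem1 (0.88 each), and Sncaip to Bmpr1b (0.89), Hdac9 (0.88) and Nos1 (0.88). Ndst4 and Unc5d are among the 10 MD markers. Frem1 is the same gene that was higher with Pappa2 inside the MD-like clusters.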

How the data were processed

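The deposited values are whole-number transcript counts per gene and barcode. Per the labels and the study's methods the authors prepared the libraries with PIPseq, aligned reads to GRCm39 and counted with PIPseeker, and the counts precede their later removal of doublets and ambient RNA. The filtered matrices of called barcodes, the raw matrices of all barcodes and the deposited cluster numbers were used. The UMAP coordinates were not used.

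Values were computed with numpy (version 2.4.6), pandas (2.3.3) and scipy (1.17.1) under Python 3.11.15. All called barcodes were kept and no doublets were removed in the main values. A cluster was named where over 0.5 of a marker list was raised (at least 10 counts and 1.5 times the CPM of all other barcodes), with a mean log2 ratio of at least 1, no list with more genes among the 10 leading ones, and no other list that met these limits. This rule was completed after the clusters had been seen. CPM carry exact Poisson, shares Clopper-Pearson and ratios conditional binomial 95% intervals. Transcripts of a barcode are not independent cells or animals, so intervals cover counting error only. In the 2-fold calls a count below 3 was set to 3 where it would otherwise enlarge the fold. The ratios given use the counts as they were. Genes needed 50 counts over both sets to be compared. For an alternative, scanpy 1.11.5 gave each barcode a Scrublet doublet score. The automatic cutoff called 359 cortex barcodes (6.60%) and 3 medulla barcodes (0.0369%). Since it had not worked in medulla, the 5% with the highest scores (489 barcodes, ties included) were taken there. The fold calls and zero shares were tested on counts simulated from the cortex library alone, and pair counts on simulated independent genes. False fold calls were checked only among genes far above the limit of 50 counts. Calls near that limit, and calls in the smaller medulla cluster, were not tested.

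The members, marker lists and pathway lists were chosen with earlier results of these data known. The named genes are the members, the 3 genes most like each, and up to 5 genes of each list past 2-fold in the cortex MD-like cluster, besides those said to be chosen after their values were seen. A few genes of the lists that did not pass, or had too few counts, are given for their known role.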

Additional observations from a re-analysis of the deposited data

Results flagged for a closer look

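Barcodes that had not been called as nuclei were outside the comparisons above. In cortex the called barcodes began at 1268 counts, and 202 uncalled barcodes held over 1000 and up to 1267 counts. Of these, 60 held at least 3 of the 10 MD markers. All 6 members stood above their level in uncalled barcodes with 1 to 100 counts, with intervals that did not overlap. Nos1 stood at 521 CPM (432 to 623, in 48 barcodes) against 176 CPM, Pappa2 at 568.5 CPM (476 to 674, in 36 barcodes) against 202 CPM, and Sncaip at 121 CPM (80.1 to 174) against 36.9 CPM. Ptgs2 stood at 51.7 CPM, Itga4 at 68.9 CPM and Vash2 at 34.5 CPM. In medulla the called barcodes began at 955 counts, no uncalled barcode held over 1000, and the 619 with over 300 and up to 1000 counts held Nos1 at 14.8 CPM (4.82 to 34.6), whose interval covers the 19.9 CPM in those with 1 to 100. Among called barcodes of cortex, the MD-like cluster had the lowest median depth of the 13 clusters. How many more of them a lower calling limit would give was not tested.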

How the results depend on the processing

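Of 256 recomputed values 170 stayed within their interval, or within 1.5 times for counts, and 86 moved. A quality filter on detected genes and mitochondrial share left out 0 barcodes in cortex and 1 in medulla. Its values are among the 170 but could hardly have moved. No value changed direction. Shares and counts have no direction to change, and the level ratios started at 25.4 or higher, so the lack of reversals says little. Shares and pairs start from barcodes with at least 3 of 10 markers, 1211 in cortex and 162 in medulla, not from the MD-like cluster. In cortex the starting shares were Nos1 68.5%, Ptgs2 10.5%, Pappa2 46.2%, Vash2 11.9%, Itga4 19.5% and Sncaip 28.5%. In medulla they were Nos1 58.6%, Ptgs2 10.5%, Pappa2 37.65%, Vash2 4.94%, Itga4 19.1% and Sncaip 24.7%. Nos1 and Ptgs2 started at 1.39 and 1.605 times the product in cortex and medulla, and Nos1 and Pappa2 at 1.316 and 1.621. The values that moved follow, with pairs as observed over expected counts. Doublets removed gave in cortex level ratios Nos1 72.1, Ptgs2 192, Pappa2 106, Vash2 84.1, Itga4 50.5 and Sncaip 30.8, and in medulla level ratios Nos1 672 and Pappa2 839. Thinned to 1000 counts gave in cortex 660 barcodes, shares with Nos1 72.7%, Vash2 8.48%, Itga4 15.8% and Sncaip 25.6%, pairs Nos1 and Ptgs2 1.12 and Nos1 and Pappa2 1.1, level ratios Nos1 66.1, Ptgs2 238, Pappa2 92.3, Itga4 68.3 and Sncaip 37.1, and in medulla 88 barcodes, shares with Nos1 73.9%, level ratios Nos1 663, Pappa2 788 and Sncaip 237. At least 2 of 10 markers gave in cortex 1887 barcodes, shares with Nos1 45.4%, Ptgs2 6.78%, Pappa2 30.7%, Vash2 7.74%, Itga4 12.7% and Sncaip 19.3%, pairs Nos1 and Ptgs2 2.1 and Nos1 and Pappa2 1.93, and in medulla 372 barcodes, shares with Nos1 26.6%, Ptgs2 4.57%, Pappa2 16.9%, Vash2 2.15%, Itga4 8.87% and Sncaip 12.1%, pairs Nos1 and Ptgs2 3.54 and Nos1 and Pappa2 3.46. At least 4 of 10 markers gave in cortex shares with Nos1 82.9%, Ptgs2 13.4%, Pappa2 57.3%, Vash2 15.1%, Itga4 24.5% and Sncaip 34.9%, pairs Nos1 and Ptgs2 1.15 and Nos1 and Pappa2 1.1, and in medulla shares with Nos1 79.8%, Pappa2 55%, Itga4 26.6% and Sncaip 33.9%, pairs Nos1 and Pappa2 1.19. At least 5 of 10 markers gave in cortex 759 barcodes, shares with Nos1 88.8%, Ptgs2 15.2%, Pappa2 62.2%, Vash2 15.2%, Itga4 27.3% and Sncaip 38.3%, pairs Nos1 and Ptgs2 1.07 and Nos1 and Pappa2 1.04, and in medulla 88 barcodes, shares with Nos1 87.5%, Pappa2 63.6%, Itga4 28.4% and Sncaip 38.6%, pairs Nos1 and Pappa2 1.1. Barcodes of the macula densa-like cluster gave in cortex shares with Nos1 91.5%, Ptgs2 15.2%, Pappa2 66%, Vash2 17.8%, Itga4 28.1% and Sncaip 38.7%, pairs Nos1 and Ptgs2 1.04 and Nos1 and Pappa2 1.01, and in medulla shares with Nos1 87.9%, Pappa2 57.6%, Itga4 28.3% and Sncaip 37.4%, pairs Nos1 and Pappa2 1.1. At least 200 counts of the gene gave in cortex genes higher 456, from 1030, and in medulla genes higher 913, from 1917. No paired analysis was possible because each region has 1 library, and no replicate could be left out. With 99 MD-like barcodes in medulla, pairs that involve Ptgs2 or Vash2 rest on 16 and 8 barcodes and are the least certain.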
